A study of Rattus norvegicus with 8 samples.

Results

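The enzymes described here remove superoxide and peroxides. They are the superoxide dismutases Sod1, Sod2 and Sod3, catalase (Cat), the glutathione peroxidases Gpx1 and Gpx4, and the peroxiredoxins Prdx1, Prdx3, Prdx5 and Prdx6. They were chosen by name: every probe on the array whose gene name in the scanner files was one of these 10 symbols was taken, which gave 11 of the 30328 probes used. Each gene had 1 probe except Gpx4, which had 2, and all 10 genes passed the filter on dim probes and were among the 16908 genes tested. The members were divided by the main site of the protein, with Sod2, Prdx3 and Prdx5 as the 3 mitochondrial enzymes and the remaining 7 as the others.

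RNA came from N27 cells, an immortalised line made from fetal rat mesencephalon that the labels call dopaminergic. The 4 groups of 2 arrays each were untreated control cells, cells given 150 µM manganese (Mn) for 48 h, cells given 250 µM MPP+ for 48 h, and cells labelled 3-NPA. MPP+ is known to inhibit respiratory complex I, and 3-NPA is read here as 3-nitropropionic acid, an inhibitor of succinate dehydrogenase in complex II. The labels give no dose or time for 3-NPA, so the toxins are set side by side and not matched. All groups were 1 cell line grown in RPMI medium, no genetic change or further agent separates them, and the labels name no vehicle. Nothing in the labels says that the 2 arrays of a group came from separate cultures, so p-values measure the spread between these samples, which may be technical.

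Superoxide that leaks from the respiratory chain is converted to hydrogen peroxide by superoxide dismutases: Sod2 holds manganese and works in the mitochondrial matrix, Sod1 holds copper and zinc and works mainly in the cytosol, and Sod3 is secreted. Hydrogen peroxide is then removed by catalase in peroxisomes, by the selenium enzymes Gpx1 and Gpx4 with glutathione as reductant, and by the peroxiredoxins, most of which are reduced by thioredoxin. Prdx3 is found only in mitochondria and Prdx5 in mitochondria, peroxisomes and the cytosol. Gpx1 is both cytosolic and mitochondrial, Gpx4 removes lipid peroxides and also has a mitochondrial form, and Prdx6 uses glutathione. The division by site is therefore approximate. In dopaminergic neurons these enzymes are studied because dopamine oxidation and inhibition of the respiratory chain both yield peroxide.

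The array reads each gene through a probe of 60 bases, and the first 30 bases of the probes behind the changes below are shown because they define what was measured. They are given 5′ to 3′, with probe positions on the rn4 assembly from the scanner files. The 2 Gpx4 probes are included because they gave different results with 3-NPA.
Sod2 (chr1:41863005-41863064): gtcagcaaccccaggcatgcacattacttc
Prdx3 (chr1:267468941-267468999): ggtccatcaataataggtcatcctatgtct
Gpx1 (chr16_random:1046407-1046466): cggggggaggtttttccatgacggtgtttc
Sod3 (chr14:63381466-63381525): tgcctgcaccccaaggagagcagctcctcc
Cat (chr3:88683063-88685007): tgaaagatgctcagcttttcattcagagga
Gpx4, brighter probe (chr7:11162522-11162581): tgtggccccgggctcgagcttcaccttggc
Gpx4, dimmer probe (chr7:11163817-11163876): aggagtttgcagccggctacaatgtcaggt
The positions of the Cat, Prdx1 and Prdx5 probes span 1945, 1572 and 174 bases for 60 bases of probe, so these probes are not contiguous in the genome. No rn4 annotation was used here, and the exon or UTR that holds a probe is not given. The scanner files place the Gpx1 probe on chr16_random of rn4, while the Gpx1 promoter on the GRCr8 assembly is on chr8. The reason for this difference, and whether the probe position is a copy of Gpx1, was not tested. A pair of members has a near copy on the array. The Prdx1 probe shares a run of 20 bases with the probe of LOC679528, and the Prdx6 probe a run of 23 bases, in capitals here, with the probe of a transcript named XM_220591, so signal from these pairs cannot be fully told apart.
Prdx6: agcTCCCATCTGGCAAGAAATACCTCcgtt
XM_220591: TCCCATCTGGCAAGAAATACCTCagttata

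RefSeq promoters on GRCr8, from 250 bases before to 50 after the start, were matched for 8 of the 10 members, in 10 entries of which 3 belonged to Gpx4. The first 250 bases are shown for Sod2, Prdx3 and Gpx1, members called with MPP+ or 3-NPA. Cat was also called and has an entry, but neither motif was found in its window. Capitals mark the antioxidant response element core (TGACNNNGC), the sequence that the Nrf2 transcription factor is known to bind, and the GC box (GGGCGG), on either strand. Both motifs are read in the direction of the gene, so a match on the other strand appears as its reverse complement.
Sod2 (chr1:50050119-50050418, minus strand): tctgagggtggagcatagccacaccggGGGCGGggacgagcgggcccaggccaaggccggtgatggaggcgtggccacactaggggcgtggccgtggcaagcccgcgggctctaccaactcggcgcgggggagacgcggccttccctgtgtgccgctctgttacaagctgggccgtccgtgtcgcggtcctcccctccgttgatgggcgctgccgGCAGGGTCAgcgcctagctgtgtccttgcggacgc
Prdx3 (chr1:270000062-270000361, minus strand): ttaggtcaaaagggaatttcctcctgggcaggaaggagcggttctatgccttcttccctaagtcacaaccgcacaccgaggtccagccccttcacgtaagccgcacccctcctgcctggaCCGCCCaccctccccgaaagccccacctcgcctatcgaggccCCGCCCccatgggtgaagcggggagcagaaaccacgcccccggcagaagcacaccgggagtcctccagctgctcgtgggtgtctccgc
Gpx1 (chr8:117905212-117905511, plus strand): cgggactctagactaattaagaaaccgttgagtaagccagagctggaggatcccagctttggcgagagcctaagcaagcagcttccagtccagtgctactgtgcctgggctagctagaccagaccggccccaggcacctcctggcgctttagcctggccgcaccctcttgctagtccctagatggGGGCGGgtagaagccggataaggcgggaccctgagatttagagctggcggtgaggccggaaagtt
The response element core was found in the 300-base windows of Sod2, Prdx1 and Prdx5, and 12.1% of the 33469 promoters of that length hold it. The GC box was found in all the matched members except Cat, which is 7 of 8, and 33.1% of all promoters hold it. The members' windows had a GC content from 58.3% to 72%, above the median of 51.7% over all promoters. A match describes letters only.

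Values below are log2 signals of a probe relative to the 75th percentile of its array, so 0 is that percentile. They may be compared between arrays for 1 probe, but not between probes. A gene was called where limma's moderated test over all 16908 genes gave a Benjamini-Hochberg adjusted p under 0.05 in that comparison. Errors of log2 fold changes are limma's standard errors for 2 arrays against 2, with the spread estimated over all 8 arrays. A gene therefore has the same error in every comparison. Between 32711 and 41354 spots per array were well above background, and no spot was saturated. The 2 arrays of a group correlated at 0.990 to 0.997 over genes, with a median difference of 0.0958 to 0.186, so no 2 arrays held the same values. All 8 arrays were on 1 slide and in 1 scan, but each group held neighbouring positions and the 3-NPA arrays had a later feature extraction run of their own, so position, and for 3-NPA the run, cannot be told apart from group.

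Few members were called with Mn or MPP+. With Mn, Gpx1 was higher and the other 9 members were not called, while 4.50% of all genes were called higher and 3.16% lower. With MPP+, Prdx3 and Gpx1 were higher and 8 were not called, against 7.47% of all genes higher and 6.47% lower. With 3-NPA, Cat and Sod3 were higher, Sod2 was lower and 7 were not called, against 22.3% of all genes higher and 16.0% lower. With 10 members these counts lie near the background shares, so they are given as a description of single genes and not as a result about the enzymes as a group. The median log2 change of the members was -0.12 with Mn, -0.05 with MPP+ and -0.01 with 3-NPA, beside medians over all genes of -0.02, 0.02 and 0.05. The arrays of toxin and control did not overlap for 7, 7 and 8 of the 10 members, against 50.5%, 63.5% and 71.9% of all genes.

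**Figure D1:**
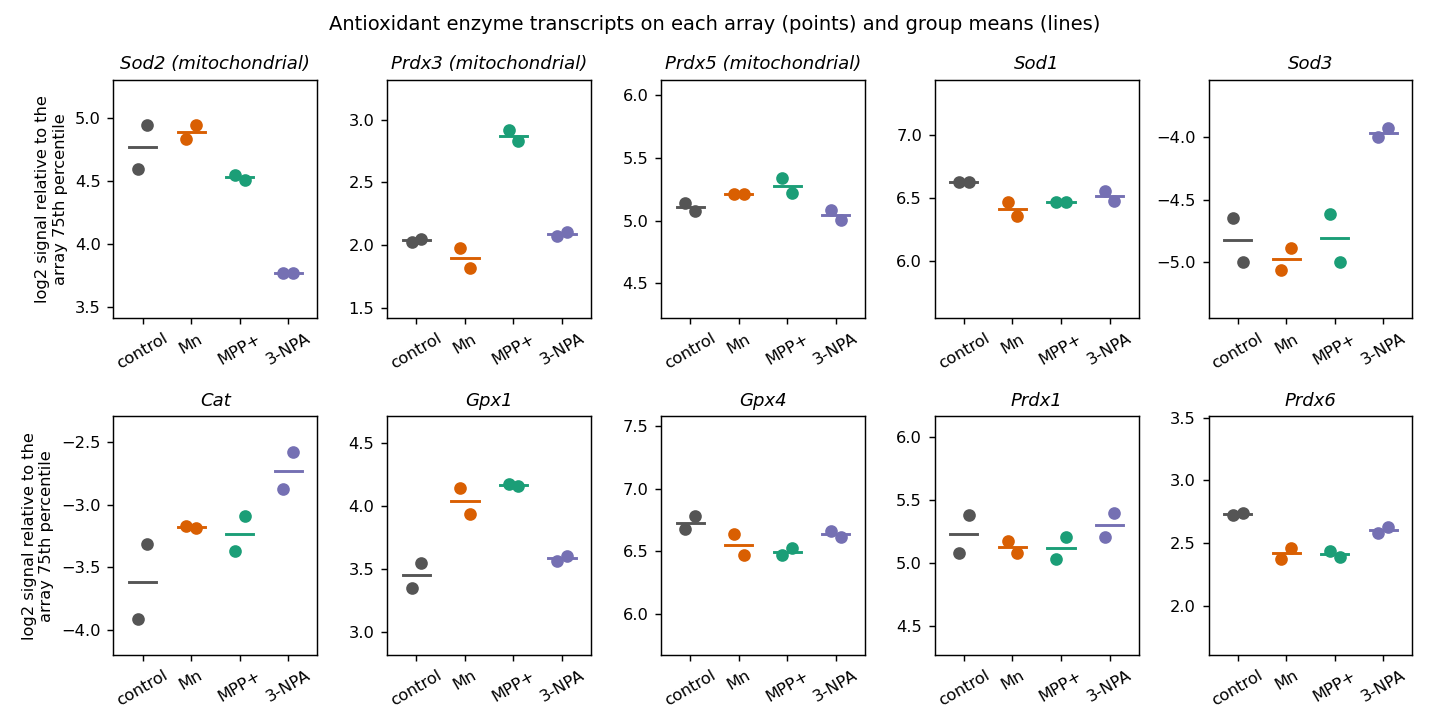
Each panel plots 1 enzyme: the vertical axis is the log2 signal relative to the 75th percentile of the array, points are the 2 arrays of a group and lines their mean, and every panel covers the same span of log2 units. Sod2 was lowest on both 3-NPA arrays (3.77), Prdx3 was highest on both MPP+ arrays (2.91 and 2.83) and Gpx1 was higher on the Mn and MPP+ arrays (3.94 to 4.18) than on the control and 3-NPA arrays (3.35 to 3.61).

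Sod2, the matrix superoxide dismutase, was lower with 3-NPA. Its log2 signal was 4.60 and 4.95 on the control arrays, 4.84 and 4.95 with Mn, 4.55 and 4.51 with MPP+, and 3.77 on both 3-NPA arrays. Both 3-NPA arrays lay below all 6 others, and the Mn arrays lay within the range of the controls. The change with 3-NPA was -1.01 ± 0.13, 2.01-fold lower (limma adjusted p = 0.00257). With Mn the change was 0.12 ± 0.13 and with MPP+ -0.25 ± 0.13, and neither was called (adjusted p = 0.607 and 0.258). When genes were divided into 10 equal bins by brightness, Sod2 fell in the brightest, where 24.7% of genes were called lower with 3-NPA and the median change was -0.15.

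The Sod2 level was also lower with 3-NPA than with Mn, by 2.18-fold (-1.13 ± 0.13, limma adjusted p = 0.00245), and than with MPP+, by 1.70-fold (-0.76 ± 0.13, adjusted p = 0.00859). The order from high to low was Mn, control, MPP+, 3-NPA, and only the step from MPP+ to 3-NPA passed the test among neighbours. Leaving out either MPP+ array or either 3-NPA array took the adjusted p of that step to between 0.052 and 0.0561, at values of -0.75 to -0.78.

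Prdx3, the peroxiredoxin found only in mitochondria, was higher with MPP+. Its log2 signal was 2.03 and 2.05 on the control arrays, 1.98 and 1.82 with Mn, 2.91 and 2.83 with MPP+, and 2.07 and 2.11 with 3-NPA. The 2 MPP+ arrays lay above all others, and the remaining 6 arrays spread over less than the MPP+ difference. The change with MPP+ was 0.83 ± 0.09, 1.78-fold higher (95% interval 1.52 to 2.08, limma adjusted p = 0.00506). With Mn it was -0.14 ± 0.09 and with 3-NPA 0.05 ± 0.09, neither called (adjusted p = 0.393 and 0.709). In its bin of brightness 7.57% of genes were called higher with MPP+.

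Prdx3 was 1.96-fold higher with MPP+ than with Mn (0.97 ± 0.09, limma adjusted p = 0.00441), and without MPP+ replicate 1 this was 0.93 with an adjusted p of 0.0501. It was 1.72-fold lower with 3-NPA than with MPP+ (-0.78 ± 0.09, adjusted p = 0.00250). The order of levels was MPP+, 3-NPA, control, Mn, and among neighbours only the step from MPP+ to 3-NPA passed the test. Of the 16908 genes, 4.03% had a larger rise than Prdx3 with MPP+.

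Prdx5, which reduces peroxides and peroxynitrite, was not called in any of the 6 comparisons as reported. Its log2 signal was 5.14 and 5.08 on the control arrays, 5.21 on both Mn arrays, 5.34 and 5.22 with MPP+, and 5.08 and 5.004 with 3-NPA. The 95% interval of its change was -0.12 to 0.32 with Mn, -0.05 to 0.39 with MPP+ and -0.29 to 0.15 with 3-NPA. Changes of up to these bounds are therefore not shown to be absent. The arrays with Mn and with MPP+ lay above the control arrays, and the 3-NPA arrays overlapped the controls. Centring arrays on their median gave calls between toxins: -0.39 in place of -0.17 for 3-NPA against Mn (limma adjusted p = 0.0302) and -0.49 in place of -0.24 for 3-NPA against MPP+ (0.0121), the latter also with array weights (0.0390).

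**Figure D2:**
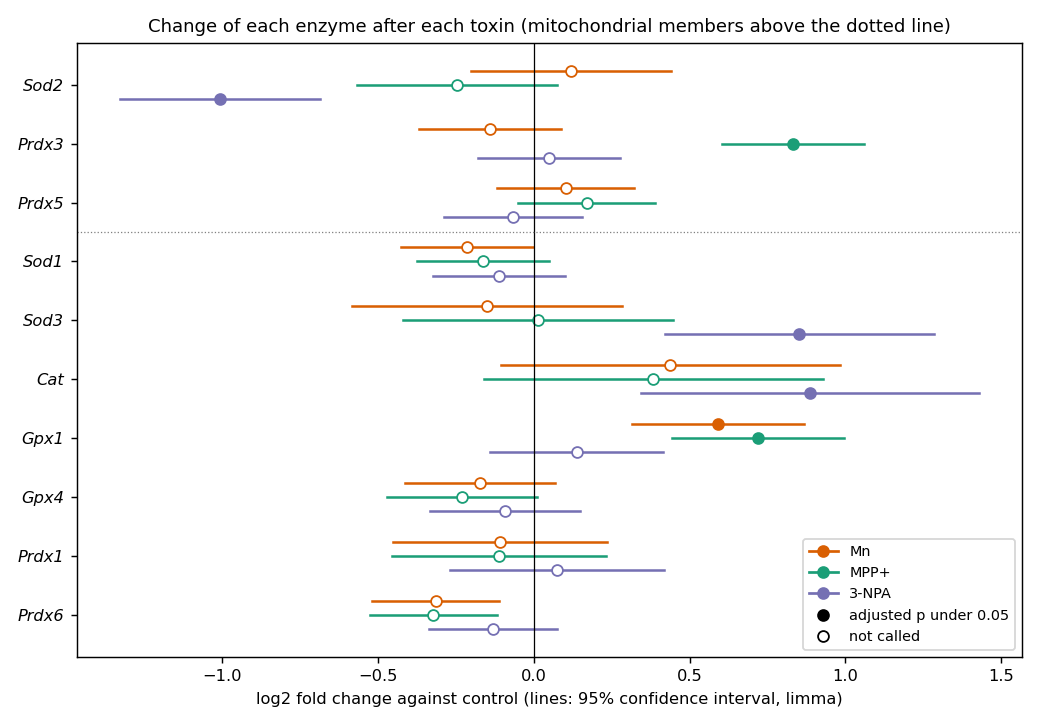
Log2 fold change of each enzyme against control, with lines for limma's 95% confidence interval, filled points for adjusted p under 0.05 and the mitochondrial members above the dotted line. The filled points are Gpx1 with Mn, Prdx3 and Gpx1 with MPP+, and Sod2, Sod3 and Cat with 3-NPA.

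Among the superoxide dismutases outside the mitochondria, Sod1 was not called and Sod3 was higher with 3-NPA. Sod1, the copper and zinc enzyme, had a log2 signal of 6.63 on both control arrays, 6.47 and 6.35 with Mn, 6.46 on both MPP+ arrays, and 6.55 and 6.48 with 3-NPA. All treated arrays lay below the controls, by -0.21 ± 0.09, -0.16 ± 0.09 and -0.11 ± 0.09, and the adjusted p ranged from 0.189 to 0.349.

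Sod3, the secreted dismutase, was dim. Its log2 signal was -4.64 and -5.00 on the control arrays, -5.06 and -4.88 with Mn, -4.62 and -5.00 with MPP+, and -4.00 and -3.93 with 3-NPA. Only the 3-NPA arrays stood apart from the rest. The probe was not well above background on either control array, so the fitted change of 0.85 ± 0.18 (limma adjusted p = 0.0129) is read as at least 1.48-fold higher, a bound set by the lowest signal well above background on the control arrays or the probe's own. Against Mn it was 2.00-fold higher (1.00 ± 0.18, adjusted p = 0.00980) and against MPP+ 1.79-fold (0.84 ± 0.18, adjusted p = 0.0168). With normexp background correction the change against control was 0.33. Leaving out 3-NPA replicate 1 or 2 gave 0.89 and 0.82 with adjusted p of 0.0567 and 0.0679. Without MPP+ replicate 2 the difference from MPP+ was 0.65 (adjusted p = 0.0912), and without 3-NPA replicate 1 or 2 it was 0.87 and 0.80 (0.0732 and 0.0845). Leaving out 3-NPA replicate 1 or 2 took the difference from Mn to adjusted p of 0.0509 and 0.0612.

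Cat, the peroxisomal enzyme that splits hydrogen peroxide, was higher with 3-NPA. Its log2 signal was -3.92 and -3.32 on the control arrays, -3.17 and -3.18 with Mn, -3.37 and -3.09 with MPP+, and -2.88 and -2.58 with 3-NPA. The 3-NPA arrays lay above all others, and the controls differed between themselves by more than any other pair. The change with 3-NPA was 0.89 ± 0.22, 1.85-fold higher (limma adjusted p = 0.0244), while the changes of 0.44 ± 0.22 with Mn and 0.38 ± 0.22 with MPP+ were not called (adjusted p = 0.278 and 0.294). Without control replicate 1, the lower control, the change with 3-NPA was 0.59 (adjusted p = 0.0652), without 3-NPA replicate 1 1.03 (0.0563) and without 3-NPA replicate 2 0.74 (0.119), and with normexp correction it was 0.53. Centring arrays on their median gave 0.74 with an adjusted p of 0.0643.

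Sod3 and Cat are the dimmest members, and the dim genes tested were as a whole higher with 3-NPA. The filter kept probes detected on both arrays of some group, so dim genes could enter through the group where they were high. The part of this filter in the medians of the dim bins was not tested. The median change with 3-NPA was 0.36 in the second dimmest of the 10 bins, where Sod3 falls, and 31.0% of those genes were called higher. In the fourth bin, where Cat falls, the median was 0.11 and 25.8% were called higher. In the brightest bin 5.85% were called higher. The part of brightness in the changes of these genes was not tested.

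**Figure D3:**
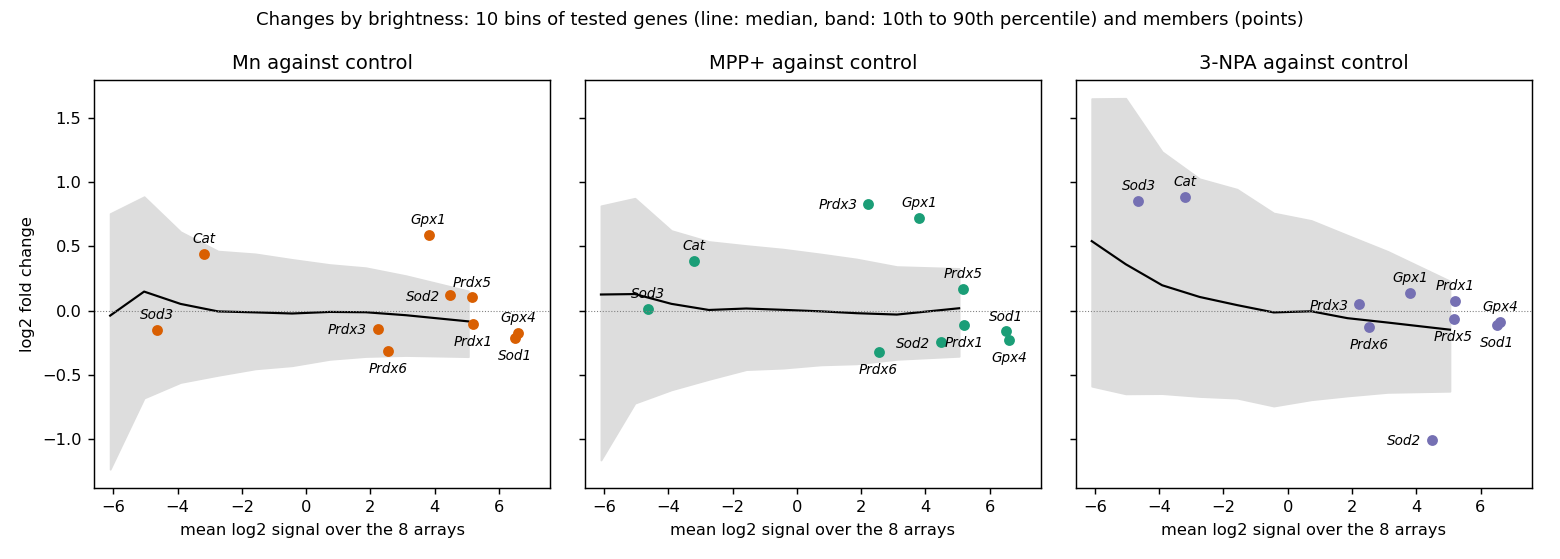
Log2 fold change against mean log2 signal over the 8 arrays: the line is the median and the band the 10th to 90th percentile of 10 equal bins of tested genes, and points are the members. With 3-NPA the median falls from 0.54 in the dimmest bin to -0.15 in the brightest, Sod3 and Cat lie inside the band and Sod2 lies below it. With MPP+ Prdx3 and Gpx1 lie above the band.

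Among the glutathione peroxidases, Gpx1, a cytosolic and mitochondrial enzyme that reduces hydrogen peroxide, was higher with Mn and with MPP+. Its log2 signal was 3.35 and 3.55 on the control arrays, 4.14 and 3.94 with Mn, 4.18 and 4.16 with MPP+, and 3.56 and 3.61 with 3-NPA. All 4 Mn and MPP+ arrays lay above the other 4. The change was 0.59 ± 0.11 with Mn, 1.51-fold (limma adjusted p = 0.0351), and 0.72 ± 0.11 with MPP+, 1.65-fold (adjusted p = 0.0137). With 3-NPA it was 0.14 ± 0.11 and not called (adjusted p = 0.378).

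The Mn and MPP+ levels of Gpx1 did not differ by the test (0.13 ± 0.11, 95% interval -0.15 to 0.41, limma adjusted p = 0.489). Gpx1 was lower with 3-NPA than with Mn (-0.45 ± 0.11, adjusted p = 0.0302) and than with MPP+ (-0.58 ± 0.11, adjusted p = 0.0128). In the order MPP+, Mn, 3-NPA, control, only the step from Mn to 3-NPA was called between neighbours. The call with Mn held under 11 of 22 alternatives: without control replicate 1 the value was 0.49 (adjusted p = 0.0943) and without Mn replicate 1 also 0.49 (0.108), and leaving out any MPP+ or 3-NPA array kept 0.59 with an adjusted p of 0.0856 or 0.0816. The call with MPP+ was lost without MPP+ replicate 1 or 2, at 0.71 and 0.73 (adjusted p = 0.0883 and 0.0955). The difference between 3-NPA and Mn had an adjusted p of 0.0663 to 0.139 without Mn replicate 1 or any MPP+ or 3-NPA array. It also missed the threshold with no filter on dim probes (0.0759) and with only the 4 arrays compared (0.0681). The difference between 3-NPA and MPP+ had an adjusted p of 0.0638 to 0.0768 without any MPP+ or 3-NPA array.

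Gpx4, the phospholipid hydroperoxidase that restrains lipid peroxidation, was not called on its brighter probe. That probe read 6.67 and 6.78 on the control arrays, 6.64 and 6.47 with Mn, 6.47 and 6.52 with MPP+, and 6.66 and 6.61 with 3-NPA, changes of -0.17, -0.23 and -0.09. With quantile normalization it was called lower with MPP+ (-0.30, limma adjusted p = 0.0472) and higher with 3-NPA than with MPP+ (0.30 in place of 0.14, adjusted p = 0.0312). The dimmer probe read 4.25 and 4.26 on the control arrays, 4.10 and 4.04 with Mn, 4.07 and 3.90 with MPP+, and 3.92 and 3.88 with 3-NPA. Its change with 3-NPA was -0.35 ± 0.10, and limma's adjusted p over probes was 0.0334, while the brighter probe had -0.09 ± 0.10 and 0.508. The probes share no run longer than 5 bases, both point lower with each toxin, and they disagree on whether 3-NPA passes the threshold.

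Of the other peroxiredoxins, Prdx1, the abundant cytosolic one, was not called. It read 5.08 and 5.38 on the control arrays, 5.17 and 5.08 with Mn, 5.03 and 5.21 with MPP+, and 5.21 and 5.40 with 3-NPA, and every toxin's arrays overlapped the controls. Prdx6, a glutathione-dependent peroxidase with phospholipase activity, read 2.73 and 2.74 on the control arrays, 2.38 and 2.46 with Mn, 2.44 and 2.39 with MPP+, and 2.58 and 2.63 with 3-NPA. Every treated array lay below both controls. The changes were -0.31 ± 0.08 with Mn, -0.32 ± 0.08 with MPP+ and -0.13 ± 0.08 with 3-NPA, with limma adjusted p of 0.0800, 0.0551 and 0.261. All 3 passed the threshold with normexp correction, at -0.38, -0.45 and -0.29 (adjusted p = 0.0382, 0.0127 and 0.0315). The changes with Mn and MPP+ also passed with trend and robust variances (0.0407 and 0.0247), and that with MPP+ over probes above background on all 8 arrays (0.0359). None is counted as called. With array weights the difference between 3-NPA and MPP+ (0.19) had an adjusted p of 0.0463. The copy XM_220591 read -0.03 and 0.04 on the control arrays, -0.64 and -0.23 with Mn, -0.31 and -0.45 with MPP+, and -0.26 and -0.07 with 3-NPA.

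Across the toxins themselves, the members called were Prdx3 for MPP+ against Mn, Sod2, Gpx1 and Sod3 for 3-NPA against Mn, and Sod2, Prdx3, Gpx1 and Sod3 for 3-NPA against MPP+, with Sod3 the only one higher with 3-NPA. The background was 4.22% of genes higher and 4.88% lower for MPP+ against Mn, 16.9% and 11.7% for 3-NPA against Mn, and 18.1% and 12.9% for 3-NPA against MPP+. These comparisons share arrays with those against control and are not separate evidence.

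The mitochondrial and the other enzymes were then compared on each array, as the mean log2 difference from control of Sod2, Prdx3 and Prdx5 minus that of the other 7. No test is given for a score over chosen genes. On the control arrays the difference was 0.01 and -0.01, with Mn 0.00 and 0.03, with MPP+ 0.25 and 0.17, and with 3-NPA -0.53 and -0.62. The group means were 0.02 ± 0.02 with Mn, 0.21 ± 0.06 with MPP+ and -0.57 ± 0.06 with 3-NPA (SD, n = 2). Mn arrays lay close to the controls, MPP+ arrays above them and 3-NPA arrays below them. These values depend on the division: Gpx1 was counted among the others though it is also mitochondrial. Its changes were 0.59 with Mn, 0.72 with MPP+ and 0.14 with 3-NPA, and a division with Gpx1 as mitochondrial was not tested.

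Single genes made up these differences, and the 3 mitochondrial enzymes did not move together. Without Prdx3 the value with MPP+ was -0.0797, opposite in sign. Without Sod2 the value with 3-NPA was -0.24, and without Sod3 and Cat among the others it was -0.32. With medians in place of means the values were 0.25, 0.28 and -0.14. With 3-NPA the mean of the mitochondrial members was -0.34 and that of the others 0.23, but the medians were -0.07 and 0.07. Of the 3 mitochondrial members, none was called with Mn, 1 was higher with MPP+ and 1 lower with 3-NPA, and of the other 7, 1 was higher, 1 was higher and 2 were higher.

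**Figure D4:**
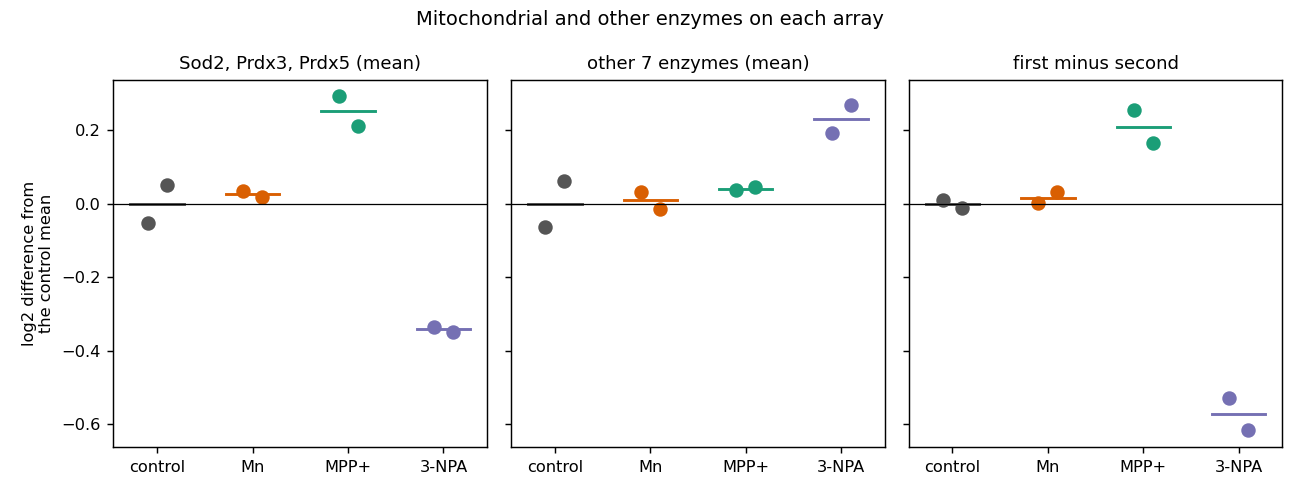
Mean log2 difference from the control mean for the mitochondrial enzymes, for the other 7 enzymes, and the first minus the second; points are arrays and lines group means. The third panel shows 0.25 and 0.17 with MPP+ and -0.53 and -0.62 with 3-NPA.

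Genes for general mitochondrial and peroxisomal content were followed to set beside Sod2, Prdx3 and Cat. Counts in these and the later lists stand beside the all-gene shares called higher and lower. Those shares were 4.50% and 3.16% with Mn, 7.47% and 6.47% with MPP+, and 22.3% and 16.0% with 3-NPA. Counts at an unadjusted p under 0.05 stand beside 4370, 5316 and 8177 of all 16908 genes with Mn, MPP+ and 3-NPA. Of 9 mitochondrial genes tested with limma, 0 were called with Mn (1 at an unadjusted p under 0.05), 1 was higher with MPP+ and 1 lower with 3-NPA. The first was Lonp1, the matrix protease, whose log2 signal was 3.77 and 3.56 in control and 4.86 and 4.98 with MPP+ (1.26 ± 0.16, limma adjusted p = 0.00686). The second was Cycs, cytochrome c (-0.44 ± 0.11, adjusted p = 0.0237). The list's median was -0.01, 0.16 and -0.09 with Mn, MPP+ and 3-NPA. Of 12 peroxisomal genes, limma called 0 with Mn or MPP+ (2 and 4 at an unadjusted p under 0.05) and 2 were lower with 3-NPA, Pex19 (-0.62 ± 0.09) and Pex13 (-0.54 ± 0.15), both needed to build peroxisomes.

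The glutathione supply contained the largest changes among the partner genes. Of 9 tested genes, 2 were higher with Mn and 4 higher and 1 lower with MPP+. With 3-NPA 6 were higher and 1 lower, beside 22.3% and 16.0% of all genes. Slc7a11, the cystine importer that limits glutathione synthesis, had a log2 signal of -2.78 and -2.97 in control, 0.61 and 0.49 with Mn, 1.18 and 1.16 with MPP+, and 0.94 and 1.05 with 3-NPA. All treated arrays lay above the controls, by 3.43 ± 0.10, 4.04 ± 0.10 and 3.87 ± 0.10 (limma adjusted p = 0.000579, 0.000147 and 6.37e-05). Gsr, which regenerates reduced glutathione for Gpx1, rose by 0.77 ± 0.12, 0.86 ± 0.12 and 1.37 ± 0.12 (limma adjusted p = 0.0171, 0.00875 and 0.000660). Its level in control was dim, at -4.52 and -4.53, and the part of brightness in its changes was not tested. Chac1, which degrades glutathione, rose by 1.33 with MPP+ and 1.03 with 3-NPA. Gclc, the catalytic subunit of glutamate-cysteine ligase, had -0.44 with Mn (limma adjusted p = 0.0559), was lower with MPP+ (-0.46) and higher with 3-NPA (0.43). The list's median was 0.25, 0.35 and 0.46, beside the all-gene medians given above.

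A list of 14 genes was taken for the thioredoxin system, which reduces the peroxiredoxins. It also holds glutaredoxins, sestrins and Txnip, so its counts are not those of peroxiredoxin reductants alone. With Mn 1 gene was higher, and with MPP+ 3 were higher and 2 lower. With 3-NPA 5 were higher and 1 lower, beside 22.3% and 16.0% of all genes. Txn1, Txnrd1 and Txnrd2, named after their values were seen, were not called against control with any toxin. The changes with Mn, MPP+ and 3-NPA were -0.08, -0.07 and 0.0004 (± 0.10) for Txn1. They were 0.36, 0.38 and 0.79 (± 0.26) for Txnrd1, with a limma adjusted p of 0.0549 for 3-NPA. For Txnrd2 they were 0.15, 0.36 and 0.11 (± 0.11), with a limma adjusted p of 0.0881 for MPP+. Srxn1, sulfiredoxin, which restores over-oxidised peroxiredoxins, read 2.48 and 2.46 in control, 3.11 and 3.14 with MPP+, and 4.12 and 4.10 with 3-NPA. That is a rise of 0.65 ± 0.11 with MPP+ (limma adjusted p = 0.0157) and 1.64 ± 0.11 with 3-NPA (0.000313), with 0.26 ± 0.11 for Mn not called. Sesn2, sestrin 2, rose with all 3 toxins, by 1.19, 2.44 and 1.64. Txnrd3, a thioredoxin reductase, rose by 0.87 with MPP+ and 1.55 with 3-NPA, from a dim level of -6.06 and -6.28 in control. The mitochondrial thioredoxin Txn2, which serves Prdx3, was named after its values were seen: it was lower with 3-NPA (-0.42 ± 0.11, adjusted p = 0.0293) and had -0.04 with MPP+.

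**Figure D5:**
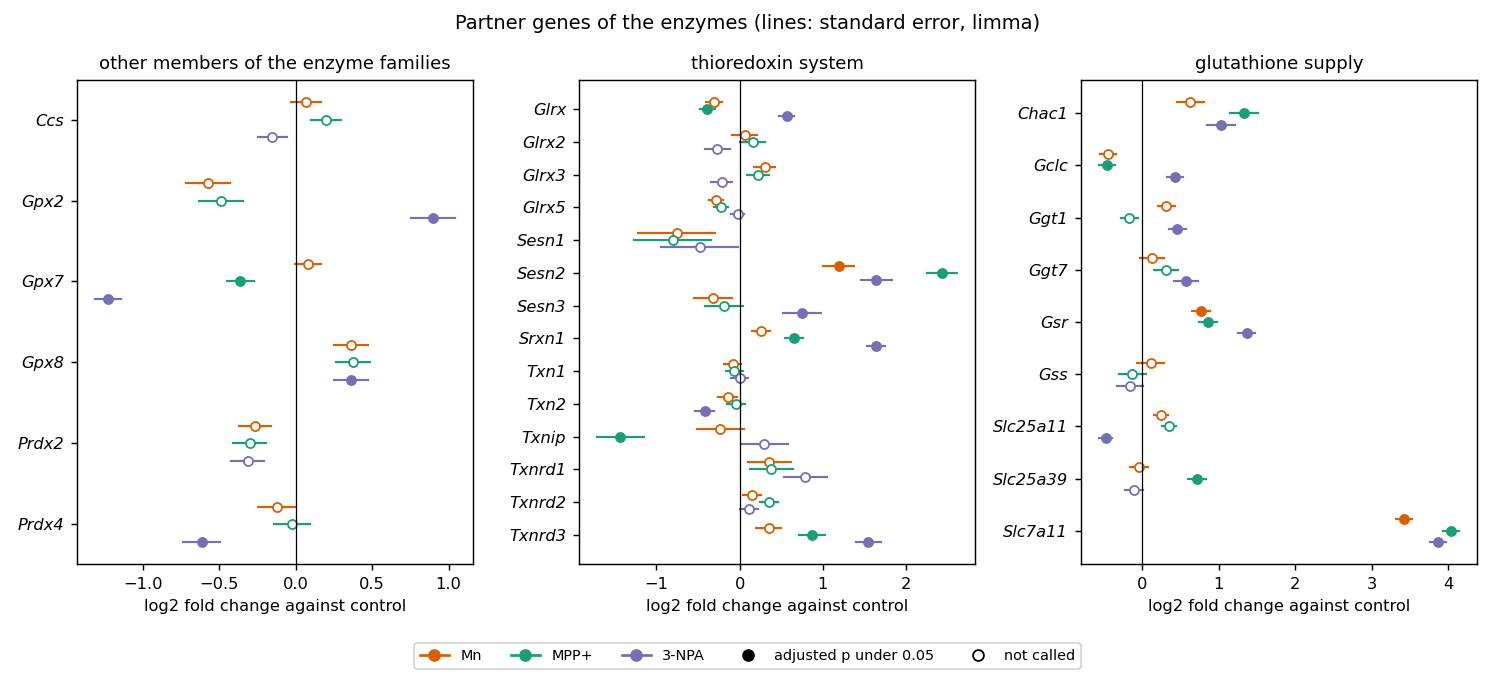
Log2 fold change against control for every tested gene of 3 lists, with lines for limma's standard error and filled points for adjusted p under 0.05. Slc7a11 stands at 3.43 to 4.04 with all toxins, Gsr at 0.77 to 1.37, and Srxn1 at 0.65 with MPP+ and 1.64 with 3-NPA.

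Of 6 other members of the same enzyme families tested with limma, 0 were called with Mn, 1 was lower with MPP+, and 2 were higher and 2 lower with 3-NPA. At an unadjusted p under 0.05 the numbers were 3, 4 and 5 of 6, beside 4370, 5316 and 8177 of all 16908 genes. The shares of all genes called were also highest with 3-NPA, as given above. Gpx7, a peroxidase of the endoplasmic reticulum, read 2.29 and 2.31 in control, 1.99 and 1.88 with MPP+, and 1.04 and 1.11 with 3-NPA (-1.23 ± 0.09, limma adjusted p = 0.000404). Prdx4, the peroxiredoxin of the same compartment, was lower with 3-NPA (-0.61 ± 0.12). Gpx2 was at least 1.15-fold higher with 3-NPA, since it was not well above background in control, and Gpx8 was higher by 0.36.

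Of 6 genes that supply NADPH, which keeps both reductant systems going, Idh1 was lower with Mn (-0.61 ± 0.11) and MPP+ (-0.82 ± 0.11) and higher with 3-NPA (0.40 ± 0.11). Nnt, the mitochondrial transhydrogenase, was lower with 3-NPA (-0.43 ± 0.10). Of 6 genes for building selenoproteins such as Gpx1 and Gpx4, Eefsec, the selenocysteine elongation factor, was higher with MPP+ (0.57 ± 0.11) and 3-NPA (0.71 ± 0.11), and no other was called.

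Of 11 genes whose products yield superoxide or peroxide, 1 was called with Mn, Cyba (0.51 ± 0.10), a subunit of NADPH oxidases, and limma called 0 with MPP+ (3 at an unadjusted p under 0.05). With 3-NPA, 5 were higher and 1 lower, beside 22.3% and 16.0% of all genes. The 3 with the smallest p were the peroxide-forming oxidases Duox1 and Duox2, at least 1.75-fold and 5.39-fold higher, and xanthine dehydrogenase, Xdh, at least 3.66-fold, all not well above background in control. Dim genes as a whole were higher with 3-NPA, as given above, and the part of brightness in these changes was not tested.

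Of 10 transcription factors and regulators of the enzymes, limma called 0 with Mn (2 at an unadjusted p under 0.05), 2 were higher with MPP+, and 3 were higher and 1 lower with 3-NPA. Nfe2l2, which encodes Nrf2, rose by 0.64 ± 0.10 and 0.50 ± 0.10 (limma adjusted p = 0.0137 and 0.0119), and the change with Mn was 0.32 ± 0.10 (0.118). Sirt3, the mitochondrial deacetylase known to activate Sod2 protein, rose by 0.87 ± 0.15 and 0.71 ± 0.15. Nfkb1, a subunit of NF-kappa B, a known activator of the Sod2 gene, was lower with 3-NPA (-0.87 ± 0.14, adjusted p = 0.00478). Rela, another subunit, named after its values were seen, was not called with 3-NPA (0.23 ± 0.17, adjusted p = 0.312). The part of either in the Sod2 change was not tested.

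The genes whose log2 values over the 8 arrays were most like Prdx3 were Sdr39u1, Vwa5a, Tsnax, Ndufaf6 and Dlx4, with Pearson correlations from 0.975 to 0.986. For Gpx1 they were Arsb, Prpsap2, Hspb11, Casp12 and Chrnb1, at 0.968 to 0.983. Among the members themselves, Sod2 and Sod3 correlated at -0.94 and Gpx1 and Prdx6 at -0.94. These values share 8 arrays and 4 groups and are descriptions.

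The dopaminergic label was checked against markers. Th, the rate-limiting enzyme of dopamine synthesis, Slc18a2 and Nr4a2 were well above background on all 8 arrays, while Slc6a3, the dopamine transporter, and Foxa2 were on none. Markers above background on both arrays of a group numbered 3, 5, 6 and 6 of 8 for control, Mn, MPP+ and 3-NPA. The summed level of all 8 was 0.622 to 0.665 of the 75th percentile in control and 0.675 to 0.702 with Mn. With MPP+ it was 0.608 to 0.668 and with 3-NPA 0.786 to 0.793. The control arrays had the fewest spots well above background over the whole array, 34060 and 32711 against 37964 to 41354 on treated arrays. A larger count of markers with a toxin, here and below, is therefore not read as a gain of those markers. Of 6 oligodendrocyte markers the numbers were 0, 2, 3 and 4, with a summed level of 0.104 to 0.132 of the 75th percentile in control and 0.194 to 0.198 with 3-NPA, and Olig2 was on none. Of 5 fibroblast markers they were 1, 2, 3 and 3, with sums of 0.688 to 0.786 in control, 1.07 to 1.14 with Mn, 0.338 to 0.388 with MPP+ and 1.43 to 1.45 with 3-NPA, and Dcn and Lum were on none. Of 6 microglial markers they were 4, 5, 5 and 5, with sums of 0.408 to 0.543 in control, 0.491 to 0.541 with Mn, 0.329 to 0.397 with MPP+ and 0.587 to 0.601 with 3-NPA, and Ptprc was on none. Of 4 endothelial markers they were 1, 2, 4 and 4, with sums of 0.509 to 0.583 in control, 0.502 to 0.548 with Mn, 0.478 to 0.482 with MPP+ and 0.688 to 0.726 with 3-NPA. Of 6 astrocyte markers they were 1, 1, 2 and 2, with sums of 0.241 to 0.313 in control and 0.288 to 0.296 with 3-NPA, and S100b and Slc1a2 were on none. Of 4 neural progenitor markers, 2 were above background in every group, and Sox2 and Pax6 on none. Their sum was 11.2 to 12.9 in control, 20.4 to 21.1 with Mn, 15.0 to 15.6 with MPP+ and 14.8 to 15.4 with 3-NPA. Of 5 pan-neuronal markers, 3 were above background in every group, and Syt1 and Snap25 on none. Their sum was 6.86 to 6.99 in control, 7.96 to 9.37 with Mn, 8.90 to 9.53 with MPP+ and 10.6 to 10.7 with 3-NPA. The part of these markers in the changes of the enzymes was not tested, and in bulk RNA fewer cells with a transcript and less of it per cell cannot be told apart.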

How the data were processed

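RNA of 8 samples was measured on single-colour Agilent arrays, labelled with Cy3, per the labels' protocols. Agilent Feature Extraction 11.5.1.1 read the scans, per the file headers, and the deposited processed signal is a linear intensity from which it had subtracted background. The deposited series table was read as log2 values, from their range and their correlation with the scanner values; its scale and the steps that made it are not given in the sources used here, and it was used as an alternative.

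Of 62976 spots per array, 58717 were not controls. Outlier spots were left out, log2 signals were averaged per probe, and the 75th percentile of each array was set to 0. A probe counted as detected on an array where more than 0.5 of its spots were well above background; the 19460 probes detected on both arrays of some group were tested, and the brightest probe stood for each of 16908 genes. limma 3.58.1 in R 4.3.3 fitted group means over the 8 arrays, with 4 residual and 2.06 prior degrees of freedom. P-values were adjusted over all genes in each comparison; the scripts were tested on simulated data. The number of arrays limits the precision.

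The members, the lists of partner and marker genes and the tests were chosen with earlier results of these data known. Partner genes named were up to 3 per list and toxin by smallest p; for likeness, the 5 genes with the highest correlation to the mitochondrial and the other member with the smallest F-test p. Alternatives were normexp correction (offset 50), quantile and median scaling, the deposited table, other filters and probe rules, other variance models, fewer arrays, the replicate block, and leaving out each array. Probes with no gene symbol were tested and not named. A gene of the NADPH list is not reported here.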

Additional observations from a re-analysis of the deposited data

How the results depend on the processing

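Prdx3 with MPP+ was called under 22 of 22 alternatives (0.79 to 0.94) and Sod2 with 3-NPA under 21 of 21 (-1.18 to -0.83). Gpx1 was called with MPP+ under 19 of 22, Sod3 with 3-NPA under 18 of 20 and Cat under 16 of 21. The count of members called with Mn was 1, and became 2 with normexp correction or with trend and robust variances, and 0 with median scaling, array weights, the 6 arrays of the first extraction run or only the 4 arrays compared. With MPP+ (2) it became 1 with only 4 arrays, and 3 with normexp correction, quantile normalization, trend and robust variances or probes above background on all 8 arrays. Alternatives other than leaving out an array gave 2 to 4 with 3-NPA (3 as reported) and for 3-NPA against Mn (3), and 3 to 7 for 3-NPA against MPP+ (4), where 7 came with array weights. Leaving out each array gave 0 to 1 (Mn), 1 to 2 (MPP+), 1 to 3 (3-NPA), 0 to 1 (MPP+ against Mn), 1 to 3 (3-NPA against Mn) and 1 to 4 (3-NPA against MPP+).

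Same-numbered arrays of the groups deviated together at correlations of -0.02 to 0.50, and not every pair passed 0.1, so the numbers were not taken as pairing. With the replicate block Gpx1 was no longer called with Mn (adjusted p = 0.0618), which took that count to 0, or for 3-NPA against Mn (0.0504); no other member's call changed. Calls over all genes became 997, 2046 and 6294 in place of 1295, 2357 and 6474.

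Mitochondrial minus other enzymes was 0.0774, 0.33 and -0.39 (Mn, MPP+, 3-NPA) with normexp correction, -0.49 with quantile normalization and -0.47 over probes above background on all 8 arrays (both 3-NPA; Sod3 drops out of the latter), and 0.25, 0.28 and -0.14 with medians. Without Gpx4 and Prdx5 it was -0.0515 with Mn, reversed in sign, and -0.76 with 3-NPA. The following were chosen after seeing the data: without Sod3 and Cat it was 0.0707, 0.27 and -0.32; without Sod2 -0.0286 (opposite in sign to 0.0170 as reported), 0.46 and -0.24; without Prdx3 0.10, -0.0797 (reversed in sign) and -0.768. The leave-one-array range was 0.00 to 0.03 (Mn), 0.17 to 0.25 (MPP+) and -0.62 to -0.53 (3-NPA).

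Calls over all genes ranged from 6 to 7047 (Mn), 476 to 8834 (MPP+) and 3595 to 11924 (3-NPA), the highest with no filter on dim probes; the lowest were with only the 4 arrays compared (Mn) and without 1 treated array (MPP+, 3-NPA). Median scaling moved the median of all genes by 0.11 (MPP+), -0.14 (3-NPA), -0.22 (3-NPA against Mn) and -0.26 (3-NPA against MPP+). The share of calls that were higher was 58.8%, 53.6% and 58.2% (Mn, MPP+, 3-NPA) and became 69.9%, 71.5% and 42.6% with median scaling, 73.0% and 64.5% (Mn, MPP+) with quantile normalization, and 39.7% (MPP+) with normexp correction. Between toxins, median scaling took it from 59.1% to 33.2% (3-NPA against Mn) and from 58.4% to 27.8% (3-NPA against MPP+).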
